A study of Homo sapiens with 6 samples.

Results

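The transcripts of 9 transcription factors that mark the cell lineages met in oesophageal adenocarcinoma were read from RNA sequencing of OE33, an established human cell line from such a tumour. The factors include GATA6, FOXA1 and FOXA2 of columnar epithelium, CDX1, CDX2 and HNF4A of intestinal epithelium, and KLF5 of proliferating gut epithelium. The others are SOX9 of progenitor and metaplastic glands, and SOX2 of the foregut and the squamous oesophagus. They were chosen by name, as the rows of the deposited table whose Ensembl IDs carry these symbols in GENCODE 29, and make up 9 of 58051 genes. All 9 had a row, 8 had at least 1 count, and 7 passed the filter on low counts that decides which genes are tested. The 6 libraries, of independent biological replicates, came from 3 samples of parental OE33 cells given 15 µM APX2009 for 24 h and 3 untreated samples. A factor that does not pass the test with 3 per group is not shown to be unaltered. APX2009 is a small molecule that inhibits the redox activity of APE1, the activity by which this DNA repair protein keeps several transcription factors in a reduced, DNA-binding state. No vehicle is named for the untreated cells, no genetic change of APE1 and no inactive analogue is among the samples, and 1 line stands for the tumour, so every value below belongs to OE33 alone.

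Lineage factors bind enhancers and keep the genes of a cell type active. FOXA proteins and GATA6 can bind closed chromatin and open it for other factors, and HNF4A, a nuclear receptor, and the CDX homeodomain proteins then drive genes of absorptive intestine. The normal oesophagus is squamous and carries SOX2 and TP63 in its basal cells. In Barrett's oesophagus, the metaplasia from which this cancer arises, the lining becomes columnar and gains SOX9, HNF4A, GATA6 and CDX2, and KLF5 is a further factor known from adenocarcinoma cells.

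The libraries held 26111656, 22486741 and 21158750 gene counts in APX2009 replicates 1, 2 and 3, and from 22443569 to 25093753 in untreated cells. SOX9 and KLF5 had at least 1795 counts in each library, while HNF4A had 6 or fewer. APX2009 replicate 1 stood apart from the other libraries. It held counts for 25015 genes, against 21845 and 22446 in the other APX2009 libraries and 22207 to 22322 in untreated cells, and 4.12% of its counts were mitochondrial, against 2.25% in each of the other APX2009 libraries and 0.943% to 2.62% in untreated cells. It also held low counts of markers of other cell types. All 6 fibroblast markers had counts there, at a summed 19.3 CPM (counts scaled to a common library size by TMM), against 9.11 and 10.5 CPM in the other APX2009 libraries and 8.35 to 12.7 CPM in untreated cells, where 4 of the 6 were at 0 in each of those sets and COL1A1 made up nearly all of the sum. The 4 endothelial markers summed to 2.02 CPM in it, against 0.0889 and 0.0958 CPM in the other APX2009 libraries and 0.0445 to 0.402 CPM in untreated cells. The 6 leukocyte markers summed to 9.44 CPM in it, against 8.80 and 8.05 CPM in the other APX2009 libraries and 6.84 to 8.43 CPM in untreated cells. CD68, a lysosomal protein abundant in macrophages, was the 1 leukocyte marker that changed (3.17 ± 0.640 CPM in APX2009 cells and 1.39 ± 0.436 CPM in untreated cells, log2 change 1.19, edgeR adjusted p = 0.00513). The share of ERCC spike-in counts in APX2009 replicate 1 was 0.315%, against 0.752% and 0.734% in the other APX2009 libraries and 0.480% to 0.564% in untreated cells. The origin of these marker counts was not tested, nor was the part of them and of this share in the results. All 7 columnar epithelial markers had enough counts to be tested, and 4 of them fell while 0 rose (edgeR; 1 rose without APX2009 replicate 1), against 17.4% lower and 17.2% higher among all tested genes. KRT8, KRT19, KRT18 and CDH1 had log2 changes of -1.08, -0.72, -0.43 and -0.38. EPCAM, named after its values were seen, had 446.3 ± 4.84 CPM in APX2009 cells and 447.1 ± 12.4 CPM in untreated cells (SD, n = 3 each).

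Start-site windows are shown first for FOXA1 and SOX2, which changed in opposite directions, and for HNF4A, which has a start upstream and another downstream and was almost silent here. Each window runs from 250 bases before to 50 bases after a RefSeq start (GRCh38.p14) and reads 5′ to 3′ on the gene's own strand. Capitals mark matches on either strand to 6 motifs: TGTTTNC for forkhead factors, AGATAA for the GATA family, TTTATNG for CDX, ACAANG for SOX, GGGNGNGG for KLF and TGANTCA for AP-1, a factor family known as a substrate of APE1's redox activity. RefSeq windows matched 6 of the 9 factors; CDX1, SOX9 and FOXA2 are named only.
FOXA1, chr14:37595200-37595499, minus strand: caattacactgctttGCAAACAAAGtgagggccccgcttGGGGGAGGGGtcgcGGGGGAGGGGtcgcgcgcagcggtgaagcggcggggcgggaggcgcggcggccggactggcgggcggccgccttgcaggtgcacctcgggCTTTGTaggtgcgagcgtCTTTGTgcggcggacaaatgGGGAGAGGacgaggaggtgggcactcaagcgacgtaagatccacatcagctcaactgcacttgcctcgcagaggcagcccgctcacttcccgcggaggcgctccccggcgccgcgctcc
SOX2, chr3:181711675-181711974, plus strand: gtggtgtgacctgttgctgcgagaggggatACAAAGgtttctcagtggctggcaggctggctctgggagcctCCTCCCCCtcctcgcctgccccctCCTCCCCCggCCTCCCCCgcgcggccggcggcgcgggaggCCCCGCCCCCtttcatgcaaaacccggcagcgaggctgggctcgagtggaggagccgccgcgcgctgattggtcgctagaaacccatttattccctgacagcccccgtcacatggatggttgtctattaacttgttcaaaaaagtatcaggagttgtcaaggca
HNF4A, upstream start, chr20:44355449-44355748, plus strand: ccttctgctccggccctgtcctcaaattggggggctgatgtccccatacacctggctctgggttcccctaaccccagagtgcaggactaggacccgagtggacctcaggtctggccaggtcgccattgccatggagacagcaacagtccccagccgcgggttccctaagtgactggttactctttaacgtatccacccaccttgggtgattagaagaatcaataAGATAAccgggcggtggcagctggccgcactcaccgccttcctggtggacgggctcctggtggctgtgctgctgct
HNF4A, downstream start, chr20:44400989-44401288, plus strand: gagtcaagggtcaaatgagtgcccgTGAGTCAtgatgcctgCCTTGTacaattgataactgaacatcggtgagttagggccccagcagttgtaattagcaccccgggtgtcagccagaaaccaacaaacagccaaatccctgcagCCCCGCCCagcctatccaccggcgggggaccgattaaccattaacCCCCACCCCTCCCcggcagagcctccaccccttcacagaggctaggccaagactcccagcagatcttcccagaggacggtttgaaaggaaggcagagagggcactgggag

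The FOXA1 window held 1 match to the forkhead motif, starting at -235 from the first transcribed base, where it shares bases with a SOX match. It held 3 SOX and 5 KLF matches in all and none to GATA, CDX or AP-1, and some of its KLF matches overlap each other, as they do in the SOX2 window. The SOX2 window held 5 KLF matches and 1 SOX match, at -220, and none to forkhead, GATA, CDX or AP-1. The upstream HNF4A window held 1 GATA match, at -26, and the downstream one 3 KLF matches, 1 SOX match and 1 AP-1 match. Of 35116 RefSeq windows of this length, 18.0% held a forkhead match, 10.3% a GATA match, 9.73% a CDX match, 35.5% a SOX match, 56.2% a KLF match and 7.71% an AP-1 match. GC content was 69.3% in the FOXA1 window and 63.3% in that of SOX2, against a median of 58.7%. These matches describe the letters of the windows and do not show that a factor binds there.

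Per exon length, KLF5 led the set in both groups, and CDX1 and HNF4A were at or near 0. The scale is CPM per kilobase (kb) of annotated exon, on which levels of different genes can be compared. In APX2009 cells the means were 50.9 ± 2.22 for KLF5, 28.5 ± 1.36 for FOXA1, 23.6 ± 1.91 for SOX9, 5.93 ± 0.746 for GATA6, 4.47 ± 0.4999 for FOXA2, 3.87 ± 0.157 for CDX2 and 1.17 ± 0.123 for SOX2 (CPM per kb, SD, n = 3). Among neighbours in this order, only FOXA2 and CDX2 overlapped between their 3 APX2009 libraries. In untreated cells the means were 53.8 ± 0.191 for KLF5, 44.8 ± 1.54 for SOX9, 21.7 ± 0.718 for FOXA1, 6.56 ± 0.153 for GATA6, 3.60 ± 0.128 for CDX2, 2.47 ± 0.287 for FOXA2 and 1.99 ± 0.135 for SOX2 (CPM per kb, SD, n = 3), and no neighbours overlapped. FOXA1 thus stood above SOX9 in APX2009 cells and below it in untreated cells. By the untreated level, KLF5 lay above 94.4% of all tested genes, SOX9 above 93.2%, FOXA1 above 85.4%, GATA6 above 60.2%, CDX2 above 46.5%, FOXA2 above 38.7% and SOX2 above 34.3%. Exon length is the union of all annotated exons, so a gene whose long isoforms are unused is set too low on this scale.

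**Figure D1:**
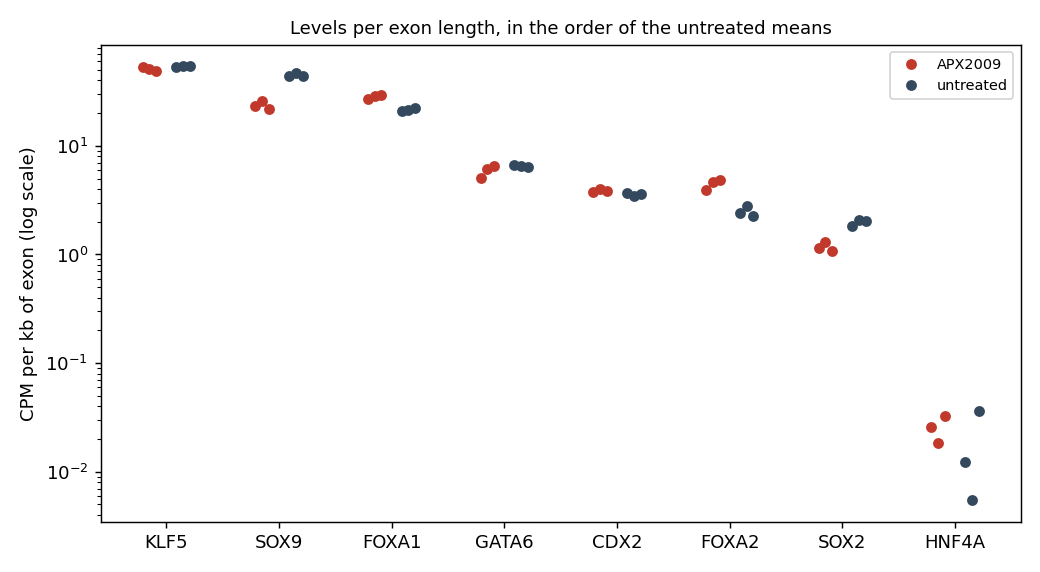
Levels of the 8 factors with counts, in CPM per kb of exon on a log scale, with 1 point for each APX2009 library (red) and each untreated library (dark). KLF5 lies highest in both groups, at 50.9 CPM per kb on average in APX2009 cells and 53.8 in untreated cells, and HNF4A lies far below the other 7; CDX1, at 0 in all 6 libraries, is not drawn.

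Of the 7 tested factors, 4 changed (edgeR's quasi-likelihood test, Benjamini-Hochberg adjusted p under 0.05 over all tested genes), 2 higher and 2 lower in APX2009 cells. Among all 14773 tested genes 34.7% changed, 17.2% higher and 17.4% lower, so calls in each direction were common in this comparison. FOXA2 and FOXA1 rose, by log2 changes of 0.85 and 0.40, SOX9 and SOX2 fell, by 0.92 and 0.76, and KLF5, GATA6 and CDX2 did not pass. The median log2 change of the 7 was -0.08, against 0.02 over all tested genes. The 3 APX2009 and 3 untreated values did not overlap in 6 of the 7, against 49.4% of all tested genes. Levels are relative to the other transcripts of the same library, and in bulk samples fewer cells with a transcript and less of it per cell cannot be told apart.

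**Figure D2:**
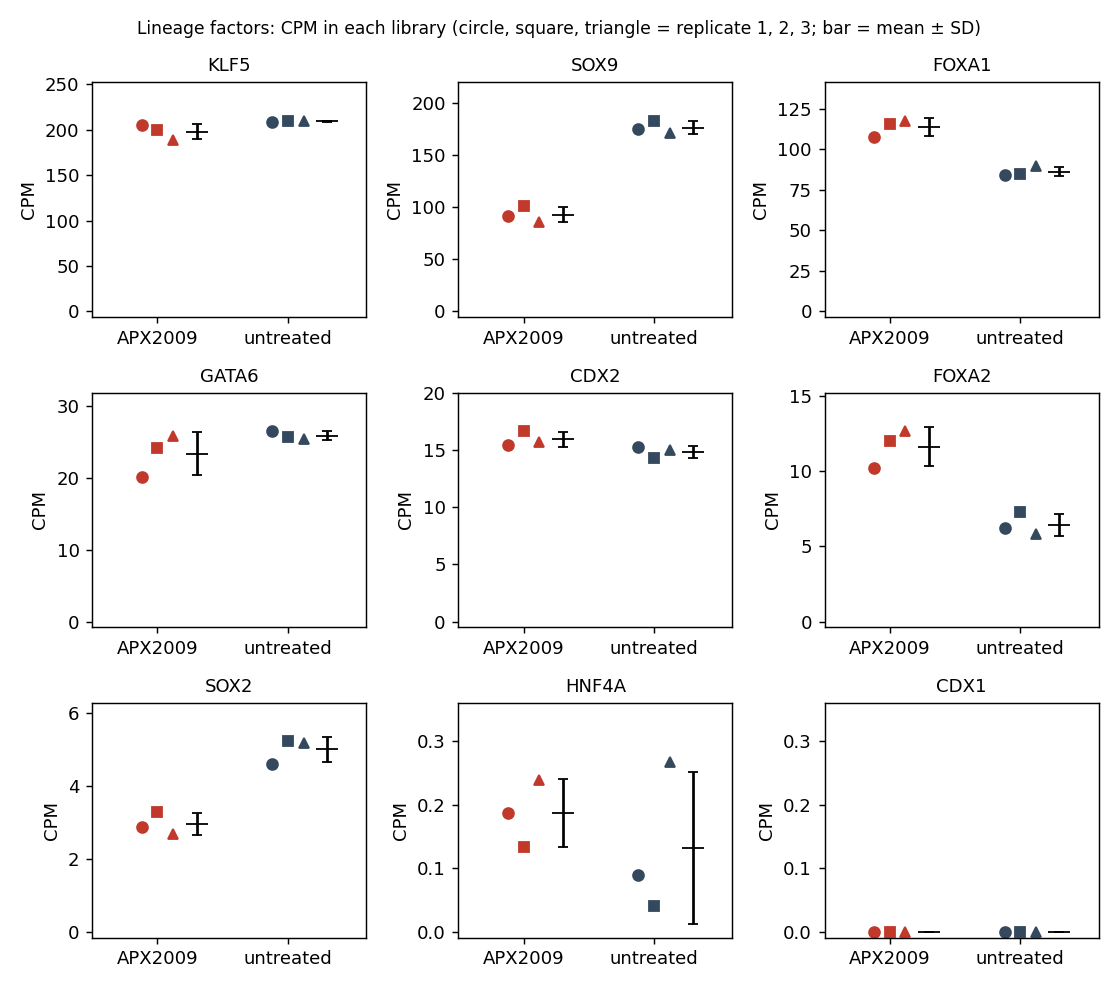
CPM of each factor in the 3 APX2009 libraries (red, left) and the 3 untreated libraries (dark, right), with the mean and SD beside them; each panel has its own axis from 0. SOX9 and SOX2 lie lower in all 3 APX2009 libraries, FOXA1 and FOXA2 higher, GATA6 overlaps, and HNF4A and CDX1 are at the floor.

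SOX9, an HMG-box factor of intestinal crypt and ductal progenitors that is also gained in Barrett's glands (ENSG00000125398, chromosome 17, 72121020 to 72126420), fell most among the 7 tested. It had 91.9, 100.9 and 86.0 CPM in APX2009 replicates 1, 2 and 3, against 174.6, 183.1 and 171.5 CPM in untreated replicates 1, 2 and 3. Every APX2009 library lay below every untreated one, by far more than the spread within either group. The log2 change was -0.92 ± 0.07 (SE; edgeR adjusted p = 1.16e-05), 1.90-fold lower, and it ran from -0.98 to -0.87 when any 1 library was left out. The locus holds SOX9-AS1 on the other strand, which shares no exon base with SOX9 and did not pass (22 to 73 counts a library, log2 change 0.29 ± 0.34, edgeR adjusted p = 0.543).

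SOX2, an HMG-box factor of the foregut and of basal squamous cells (ENSG00000181449, chromosome 3, 181711924 to 181714436), fell as well, at a far lower level. It had 2.88, 3.29 and 2.68 CPM in APX2009 replicates 1, 2 and 3, on 77, 74 and 56 counts, against 4.605, 5.22 and 5.16 CPM in untreated replicates 1, 2 and 3, on 103, 130 and 116 counts. The groups did not overlap. The log2 change was -0.76 ± 0.15 (SE; edgeR adjusted p = 0.00324), 1.69-fold lower, and without 1 library it ran from -0.83 to -0.70 with adjusted p up to 0.0186. SOX2 lies inside the long non-coding gene SOX2-OT on the same strand, with no shared exon base and 0 to 15 counts a library.

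FOXA1, a forkhead pioneer factor of endoderm and other glandular epithelia (ENSG00000129514, chromosome 14, 37589984 to 37596059), rose with a small spread. It had 107.5, 115.8 and 117.7 CPM in APX2009 replicates 1, 2 and 3, against 84.2, 85.0 and 89.5 CPM in untreated replicates 1, 2 and 3. The groups did not overlap, and replicate 1 was the lowest of the APX2009 libraries. The log2 change was 0.40 ± 0.06 (SE; edgeR adjusted p = 0.000957), 1.32-fold higher. TTC6, which starts on the other strand and shares 16 exon bases with FOXA1, had 26 to 52 counts a library and did not pass (log2 change 0.42 ± 0.26, edgeR adjusted p = 0.239).

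FOXA2, the paralogue that works beside FOXA1 in endoderm, liver and foregut (ENSG00000125798, chromosome 20, 22581005 to 22585455), rose more on the log2 scale and stayed at a lower level. It had 10.2, 12.04 and 12.7 CPM in APX2009 replicates 1, 2 and 3, against 6.21, 7.27 and 5.83 CPM in untreated replicates 1, 2 and 3. The groups did not overlap, and APX2009 replicate 1 again lay nearest to the untreated libraries. The log2 change was 0.85 ± 0.13 (SE; edgeR adjusted p = 0.000859), 1.80-fold higher, and 0.93 without APX2009 replicate 1. FOXA2 shares 70 exon bases with AL121722.1, a gene of the same strand with no row in the table, whose reads cannot be told apart from it.

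KLF5, a zinc finger factor of proliferating gut epithelium (ENSG00000102554, chromosome 13, 73054976 to 73077542), did not pass. It had 205.3, 200.2 and 188.5 CPM in APX2009 replicates 1, 2 and 3, against 208.7, 209.5 and 210.2 CPM in untreated replicates 1, 2 and 3. All 3 APX2009 values lay below the untreated ones, whose SD was 0.745 CPM, and the log2 change was -0.08 ± 0.06 (SE; edgeR adjusted p = 0.342). GATA6, a zinc finger factor of endoderm, stomach and intestine (ENSG00000141448, chromosome 18, 22169443 to 22202528), had 20.1, 24.2 and 25.8 CPM in APX2009 replicates 1, 2 and 3, against 26.6, 25.7 and 25.4 CPM in untreated replicates 1, 2 and 3. These groups overlapped, and the lowest value was that of APX2009 replicate 1. Its log2 change was -0.15 ± 0.10 (SE; edgeR adjusted p = 0.261) and -0.05 without that library. Of the antisense genes at GATA6, GATA6-AS1 shares 240 exon bases and had 2 to 7 counts a library, and AC091588.3 shares 321 and had 3 to 11, against 537 to 639 for GATA6.

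Of the intestinal factors, CDX2 was the only one with more than 6 counts in any library. CDX2, the homeodomain factor that specifies intestine (ENSG00000165556, chromosome 13, 27962137 to 27971139), had 15.4, 16.7 and 15.7 CPM in APX2009 replicates 1, 2 and 3, against 15.3, 14.3 and 14.9 CPM in untreated replicates 1, 2 and 3. The groups did not overlap, by a narrow gap, and the log2 change of 0.10 ± 0.09 (SE) did not pass (edgeR adjusted p = 0.383). CDX1, its paralogue of the intestinal crypt (ENSG00000113722, chromosome 5, 150166795 to 150184558), had 0 counts in all 6 libraries, which at 3 counts a library allows a level of up to 0.112 to 0.144 CPM. Per kb of exon, CDX2 was at least 46.6-fold to 58.6-fold higher than that limit in each library. HNF4A, the nuclear receptor of liver and absorptive intestine (ENSG00000101076, chromosome 20, 44355700 to 44434596), had 5, 3 and 5 counts in APX2009 replicates 1, 2 and 3, against 2, 1 and 6 counts in untreated replicates 1, 2 and 3. It did not reach the filter of the main fit at this depth, and a difference between the groups was not shown. A count per gene does not separate transcripts of the 2 HNF4A starts shown above. These limits cover counting error only.

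The direction of the log2 change held in each of the 7 tested factors under other scalings by gene counts, other filters, DESeq2, limma voom, the replicate block and the loss of any 1 library, and the same 4 factors passed each time. Scaling by the ERCC spike-ins, RNAs of known amount added to each sample, gave other calls. With all 6 libraries no factor passed (edgeR adjusted p = 1.00 for each), although the log2 changes were -0.86 for SOX9, -0.72 for SOX2, 0.45 for FOXA1 and 0.85 for FOXA2, with standard errors of 0.49 to 0.56. APX2009 replicate 1 held 82547 ERCC counts, against 170437 and 156382 in the other APX2009 libraries and 121045 to 128150 in untreated cells. Without that library the same scaling moved the median over the whole tested table to a log2 change of -0.48, with 61.6% of genes called lower. FOXA1 was then at -0.05 and did not pass (edgeR adjusted p = 0.737), while FOXA2 at 0.44, SOX2 at -1.23 and SOX9 at -1.41 passed, as did KLF5 at -0.60, GATA6 at -0.54 and CDX2 at -0.36. Relative to that median FOXA1 stood at 0.43, FOXA2 at 0.93, SOX2 at -0.75 and SOX9 at -0.93. On the same footing KLF5 stood at -0.12, GATA6 at -0.06 and CDX2 at 0.12, so these lay close to the shift of all genes. The direction of FOXA1 and that of CDX2 therefore depend on this scaling, and KLF5 was at 0.01 with ERCC totals of all 6 libraries.

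**Figure D3:**
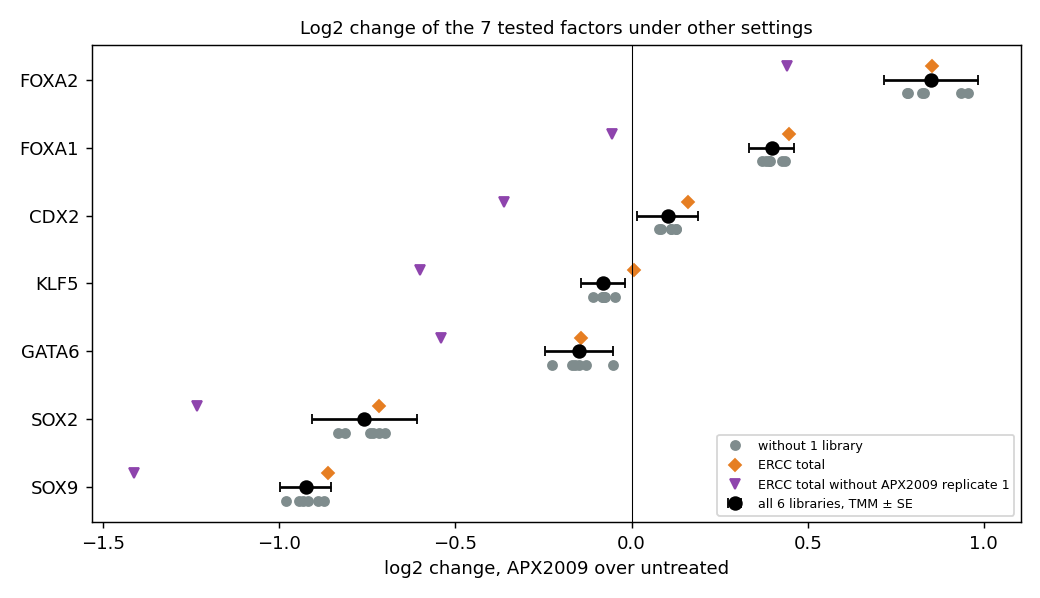
Log2 change (APX2009 over untreated) of the 7 tested factors: the fit to all 6 libraries with its SE (black), fits without 1 library (grey), scaling by ERCC total (orange) and by ERCC total without APX2009 replicate 1 (purple). Black and grey points lie together for every factor, while the purple points lie lower by about the shift of all genes, which takes FOXA1 to -0.05, KLF5 to -0.60 and CDX2 to -0.36.

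Ratios of paralogues within a library need no scaling between libraries. The log2 ratio of FOXA2 over FOXA1 per kb was -2.78, -2.65 and -2.60 in APX2009 replicates 1, 2 and 3, against -3.14, -2.93 and -3.32 in untreated replicates 1, 2 and 3. It was higher in all 3 APX2009 libraries, by a mean of 0.46. The log2 ratio of SOX9 over SOX2 was 4.34, 4.28 and 4.34 in APX2009 libraries and 4.59, 4.48 and 4.401 in untreated ones, a difference of -0.17. Neither overlapped between groups, and each had an exact two-sided permutation p of 0.1, the smallest that 3 against 3 allows, which is 0.15 adjusted over the 3 pairs. The pair CDX2 over CDX1 gave p = 0.4 in the same exact permutation test, but since CDX1 was at 0 throughout, its ratio reflects only CDX2 counts and the 0.5 added to each count.

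SOX9 took a smaller share of the SOX family in APX2009 cells. It held 29.4%, 28.3% and 25.9% of the summed CPM per kb of 19 SOX genes in APX2009 replicates 1, 2 and 3, against 38.1%, 38.9% and 38.2% in untreated replicates 1, 2 and 3. SOX12 held 26.8%, 27.2% and 30.2% in APX2009 replicates 1, 2 and 3, against 20.9%, 20.2% and 20.6% in untreated replicates 1, 2 and 3. SOX9 thus led in all 3 untreated libraries and in APX2009 replicates 1 and 2, SOX12 led in APX2009 replicate 3, and their APX2009 ranges overlapped. The log2 change of SOX12 was -0.01 ± 0.08 and did not pass (edgeR adjusted p = 0.936). SOX12 and GATA3 are named after their values were seen. SOX2 made up 1.38 ± 0.103% in APX2009 cells and 1.70 ± 0.116% in untreated cells. GATA6 was not the leading GATA gene: GATA3 held 44.5 ± 2.04% of the family in APX2009 cells and 47.9 ± 0.422% in untreated cells, and GATA6 held 21.1 ± 1.36% in APX2009 cells and 18.5 ± 0.0962% in untreated cells. GATA2 averaged 5.29 CPM per kb in APX2009 cells, below GATA6 at 5.93, and 8.65 CPM per kb in untreated cells, above GATA6 at 6.56. KLF5 led 17 KLF genes in both groups, with 33.8 ± 1.44% in APX2009 cells and 32.7 ± 0.219% in untreated cells. FOXA1 held 85.8 ± 0.782% of the FOXA family in APX2009 cells and 88.1 ± 1.01% in untreated cells. HNF4G, the paralogue of HNF4A, held 99.2 ± 0.264% of that pair in APX2009 cells and 99.5 ± 0.456% in untreated cells. These shares are descriptions and were not tested.

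**Figure D4:**
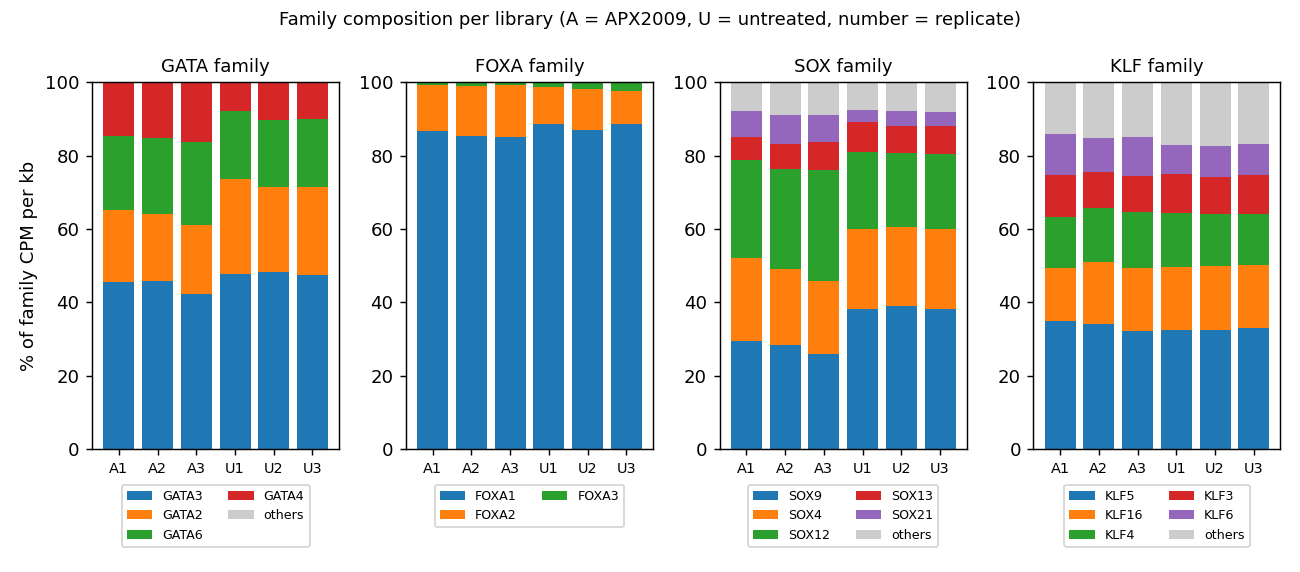
Share of each gene in the summed CPM per kb of its family, in percent, with 1 bar per library (A for APX2009, U for untreated, with the replicate number). The SOX9 band is narrower in the 3 APX2009 bars, 25.9% to 29.4% against 38.1% to 38.9% in the untreated bars, and the KLF5 band is close to a common width in all 6.

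By the distance of log2 values over the 6 libraries, each gene taken relative to its own untreated mean, the genes most like each changed factor among 9801 genes of moderate or high level were of several kinds. Nearest to SOX9 were RASA1, a regulator of RAS, at a root mean square difference of 0.0290 (log2 change -0.96), and STMN1, which destabilises microtubules, at 0.0349 (-0.93). Nearest to SOX2 were NR1D1, a nuclear receptor of the circadian clock, at 0.0290 (-0.70), and IL4R, the interleukin 4 receptor chain, at 0.0406 (-0.66). Nearest to FOXA1 were TASP1, a protease, at 0.0197 (0.39), and PSMA5, a proteasome subunit, at 0.0220 (0.39), and nearest to FOXA2 were GPX3, a glutathione peroxidase, at 0.0838 (0.87), and TMEM214, a membrane protein, at 0.0916 (0.89). With 2 groups the treatment difference dominates this likeness. SOX2 itself lay below the level set for the compared genes. The 0.5 CPM added before taking logs narrows its difference between the groups more than theirs.

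Of 41 listed GATA, HNF4, FOXA, CDX, SOX and KLF genes, 25 were tested, 3 rose and 11 fell, with a median log2 change of -0.25, against 17.2% higher, 17.4% lower and a median of 0.02 among all tested genes. The number called lower was 6 without untreated replicate 2 and 7 without untreated replicate 3. In those fits the share of all tested genes called lower was 12.1% and 11.9%. Without APX2009 replicate 1, 13 of 26 tested were lower, with 19.1% of all tested genes lower. Those with the smallest p all fell: GATA2 to 23.6 ± 1.17 CPM in APX2009 cells, against 38.6 ± 3.14 CPM in untreated cells (log2 change -0.71), SOX4 to 105.2 ± 5.72 CPM, against 148.7 ± 2.57 CPM in untreated cells (-0.50), KLF11 by a log2 change of -0.73 and KLF10 by -0.47 (edgeR adjusted p from 0.000135 to 0.000701). KLF10 and KLF11 are transcriptional repressors induced by TGF-beta, and GATA2 is best known from blood and endothelium. SOX21, a repressor related to SOX2, rose by 0.50 ± 0.12, and GATA4, the partner of GATA6 in foregut endoderm, by 0.38 ± 0.12 (edgeR adjusted p = 0.00893 and 0.0370); both were chosen after their values were seen.

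Other factors of columnar and intestinal epithelium fell more often than they rose. Of 24 listed, 17 were tested, 2 rose and 8 fell, with a median log2 change of -0.25, against 17.2% higher, 17.4% lower and a median of 0.02 among all tested genes; FOXA3, GATA4, GATA5, HNF4G and KLF4 are also counted among the paralogues. HES1, the Notch effector that holds progenitors, had 39.3 ± 2.52 CPM in APX2009 cells and 65.1 ± 1.89 CPM in untreated cells (log2 change -0.73 ± 0.07, edgeR adjusted p = 3.15e-05). EHF, an epithelial ETS factor, was 1.36-fold lower and VDR, the vitamin D receptor, 1.31-fold lower. PROX1, a homeobox factor, rose 4.45-fold at a low level, 1.10 ± 0.318 CPM in APX2009 cells and 0.245 ± 0.0595 CPM in untreated cells (edgeR adjusted p = 0.00212). It had 37, 17 and 24 counts in APX2009 replicates 1, 2 and 3, against 7, 5 and 5 in untreated replicates 1, 2 and 3. PROX1 passed the filter only through its APX2009 counts, so its fold and p are given as description. HNF4G, the paralogue of HNF4A, fell and was chosen after its values were seen; it averaged 15.2 ± 0.704 CPM in APX2009 cells and 18.1 ± 0.806 CPM in untreated cells (log2 change -0.25, edgeR adjusted p = 0.0424). Without untreated replicate 2 the number of listed factors called lower was 5, with 12.1% of all tested genes lower. The number called higher was 1 without APX2009 replicate 2 or 3 or untreated replicate 1 or 3. In those fits 1708 to 2354 of all tested genes were called higher, against 2543 with every library. With a filter of 1 CPM in 3 libraries, 1 listed factor was called higher.

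The genes of differentiated intestine and stomach were mostly silent in both groups. Of 26 intestinal genes 8 were tested, 2 rose and 1 fell, and 18 did not reach the filter, among them the brush border gene VIL1 (0.112 to 0.144 CPM in APX2009 cells, 0.224 to 0.400 CPM in untreated cells), CDH17 and FABP1, which are known as targets of CDX2 or HNF4A and were named after their values were seen. With so few genes tested, 2 higher and 1 lower of 8 are near the 17.2% and 17.4% of all tested genes, as is 1 higher of 6 for the gastric genes below. CEACAM5, an adhesion protein of colon epithelium, rose 2.08-fold to 15.7 ± 1.44 CPM in APX2009 cells, against 7.54 ± 1.34 CPM in untreated cells, and EPS8L3 rose 1.595-fold. TSPAN8, a tetraspanin, was 2.07-fold lower, and USH1C, a scaffold of the brush border, did not pass (log2 change -0.69 ± 0.39). Of 14 gastric and foregut genes 6 were tested and 1 rose, ANXA10, an annexin of gastric epithelium, to 27.9 ± 0.622 CPM in APX2009 cells, against 21.2 ± 0.691 CPM in untreated cells. PSCA, CAPN8 and MUC5AC did not pass (log2 changes -0.20, -0.66 and -0.44). PSCA was far from silent, at 77.7 ± 5.02 CPM in APX2009 cells and 89.4 ± 6.10 CPM in untreated cells. Without APX2009 replicate 1, 2 gastric genes were called higher and 2 lower, without untreated replicate 1 there was 1 lower, and without untreated replicate 2 there were 2 higher. Of all tested genes, 2839 were called higher and 2870 lower without APX2009 replicate 1. There were 2101 lower without untreated replicate 1 and 1813 higher without untreated replicate 2.

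The squamous side was present in part. Of 14 squamous and basal factors 12 were tested, 3 rose and 6 fell, with a median log2 change of -0.19, against the same shares and median of all tested genes. Only 1 rose without untreated replicate 2, where 1813 of all tested genes were called higher, against 2543 with every library. The number that fell was 4 without untreated replicate 2 or APX2009 replicate 3, with 12.1% and 15.9% of all tested genes lower. BARX2, a homeobox factor of stratified epithelium, was 2.00-fold lower (2.97 ± 0.195 CPM in APX2009 cells and 5.93 ± 0.608 CPM in untreated cells, edgeR adjusted p = 0.000572), and GRHL1, OVOL1 and PITX1 had log2 changes of -0.39, -0.44 and -0.26. PAX9, a factor of oesophageal squamous epithelium, TFAP2A and TFAP2C rose by 0.32, 0.23 and 0.60 on the log2 scale, and TP63, the master factor of basal squamous cells, had no more than 0.222 CPM in any library and was not tested; these 4 were chosen after their values were seen. Of 22 genes of squamous differentiation 12 were tested, 1 rose and 6 fell, with a median log2 change of -0.30, against 17.2% higher and 17.4% lower among all tested genes. KRT13, the keratin of suprabasal oesophagus, was 4.64-fold lower (12.8 ± 2.06 CPM in APX2009 cells and 59.4 ± 1.64 CPM in untreated cells), IVL, an envelope protein, was 1.89-fold lower, and S100A2 and DSC3 had log2 changes of -0.42 and -0.27. The number that fell was between 2 and 4 without any of the libraries other than APX2009 replicate 1. In those fits the share of all tested genes called lower was 11.9% to 15.9%, against 17.4% with all 6 libraries. The 1 rise was CSTA, a protease inhibitor of keratinocytes named after its values were seen, and the list held 0 rises without APX2009 replicate 1, 2 or 3 or untreated replicate 3.

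**Figure D5:**
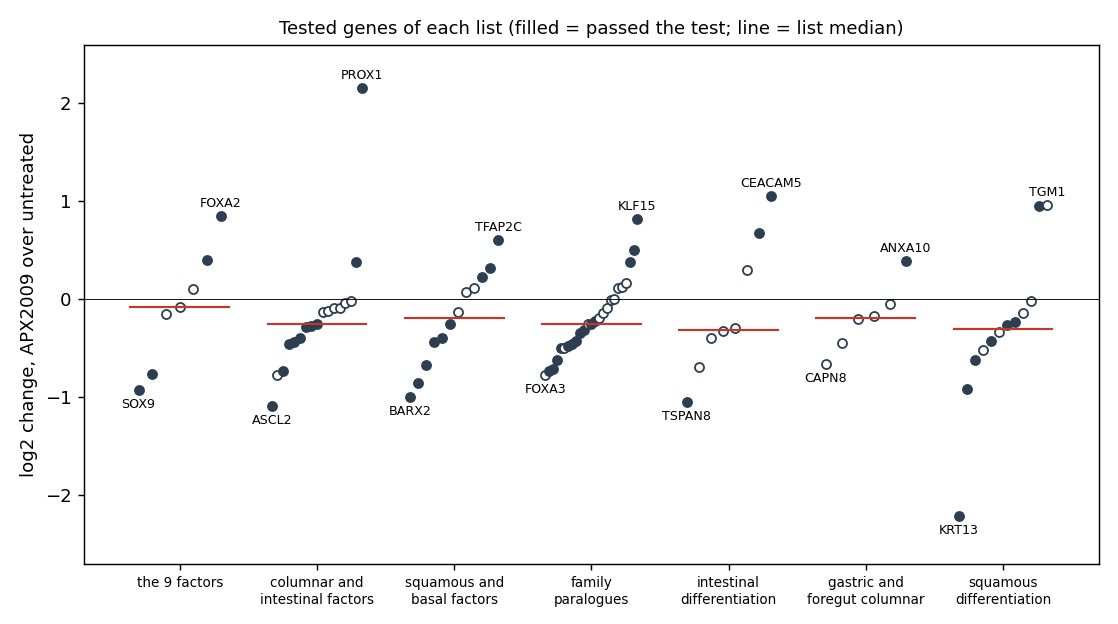
Log2 change (APX2009 over untreated) of every tested gene in the 9 factors and 6 related lists, filled where the gene passed the test, with the list median as a line. The medians of the 6 lists lie between -0.31 and -0.19, FOXA2 and SOX9 mark the ends of the 9 factors, and KRT13 is the farthest below 0; scaled by ERCC total without APX2009 replicate 1, all tested genes shift by a median of -0.48.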

How the data were processed

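RNA sequencing libraries of 3 APX2009-treated and 3 untreated OE33 samples were analysed from the authors' deposited table, which holds raw read counts, not normalized, for 58051 Ensembl genes and 92 ERCC spike-in RNAs. Trimmomatic 0.36, STAR 2.5.2b, featureCounts, Subread 1.5.2 and the build GRCh38 are named in the submitters' processing notes; the annotation release and the strand setting are not given in the sources, so reads of overlapping genes may be mixed. Symbols, exon lengths and coordinates came from GENCODE 29, which matched 57447 gene IDs; the unmatched IDs held 0.0348% of gene counts.

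The deposited counts, without ERCC rows, were filtered with filterByExpr, scaled by TMM and tested with edgeR 4.0.16 (quasi-likelihood, R 4.3.3), with Benjamini-Hochberg adjustment over 14773 genes. The procedure was checked on simulated data. The paralogue ratios added 0.5 to each count and were compared with exact two-sided permutation tests. Likeness used log2(CPM + 0.5), less the untreated mean of each gene, for genes whose mean CPM was 3 or more on the log2 scale. Alternatives were other scalings and filters, DESeq2 1.42.0, limma 3.58.1 voom, the replicate block and the loss of each library. The 9 factors, the gene lists and the comparisons were chosen with earlier results of these data known. Named were all 9 factors, genes that overlap them, the 2 nearest to each changed factor, and up to 4 genes with the smallest p of each list; others are marked where they are named. Replicates of a group differed by more than sampling noise (chi-square per degree of freedom 3.24 to 33.6). Figures were drawn with matplotlib 3.10.9.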

Additional observations from a re-analysis of the deposited data

How the results depend on the processing

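Of 112 alternative values of the 7 tested factors, 103 kept their direction and side of the threshold, and the exceptions all came from ERCC scaling. With ERCC totals 129 genes were called higher and 7 lower, with 0 factors higher and 0 lower, and KLF5 turned to 0.0077 (log2). With ERCC totals and without APX2009 replicate 1, a setting chosen after seeing the data, 459 genes were called higher and 9230 lower, with 1 factor higher and 5 lower; FOXA1 turned to -0.054 and CDX2 to -0.36. RLE, upper-quartile and total-count scaling, the other filters, DESeq2 and limma voom gave 2349 to 2781 genes higher and 2509 to 2735 lower, with 2 factors in each direction. At an adjusted p under 0.01, 1470 genes were higher and 1587 lower, with 2 factors in each direction. Leaving out 1 library gave 1708 to 2839 genes higher and 1795 to 2870 lower, and 2 factors in each direction every time. Under the same losses the log2 change ran from -0.98 to -0.87 for SOX9, -0.83 to -0.70 for SOX2, 0.37 to 0.43 for FOXA1 and 0.78 to 0.96 for FOXA2, the difference of the FOXA2 to FOXA1 ratio from 0.36 to 0.56 and that of SOX9 to SOX2 from -0.21 to -0.12.

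Deviations of same-numbered libraries correlated weakly, at 0.14, 0.0782 and 0.00599, and 4 of 6 libraries correlated best with their own number. These values do not settle whether replicate numbers pair the samples. With the replicate block 2757 genes were called higher and 2744 lower, with 2 factors higher and 2 lower, and the ratio differences were 0.46 for FOXA2 to FOXA1, -0.17 for SOX9 to SOX2 and 0.10 for CDX2 to CDX1. HNF4A and CDX1 did not reach the filter of the main fit at this depth, and the reason was not tested.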
